A study of Homo sapiens with 17 samples.

Results

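The TEAD transcription factors and the cofactors they bind were followed in 7 genes of 19867 gene IDs measured: TEAD1 (ENSG00000187079), TEAD2 (ENSG00000074219), TEAD3 (ENSG00000007866), TEAD4 (ENSG00000197905), the coactivators YAP1 (ENSG00000137693) and WWTR1 (ENSG00000018408, the gene of TAZ), and the competing cofactor VGLL4 (ENSG00000144560). The genes were taken by these IDs, as the 4 TEAD paralogs and 3 of their best-known partners. The cells were SNU-761, a human liver carcinoma line with a wild-type genotype label. SLAM-seq counted RNA made during the experiment: thiouridine taken up into new RNA is alkylated, and reads then show C at positions where the genome has T. VT107, a small molecule that inhibits all TEAD proteins, was given at 0.1 or 2.15 µM and compared with DMSO, with 2 libraries in each of the 3 groups. A biosimilar of intetumumab, an antibody against integrins that contain ITGAV, was given at 1.5 or 5 µg/ml and compared with a human isotype IgG1 at 5 µg/ml, with 3 libraries in each of the 3 groups. All labelled cells were collected after 4 h of treatment. Each experiment also had 1 library of untreated cells without thiouridine. Everything concerns 1 cell line. Whether replicates were separate cultures is not in the labels, so the spread behind the p-values is that between libraries and may be technical.

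TEAD proteins bind DNA but need a partner to activate or silence a gene. YAP and TAZ supply the activating domain when the Hippo kinases LATS1 and LATS2 leave them unphosphorylated and free to enter the nucleus. VGLL4 binds TEAD in competition with YAP and TAZ and opposes them. TEAD proteins also carry a fatty acid in a central pocket, which inhibitors of the VT series target. Integrin adhesion to the matrix, through focal adhesion kinase and Src, is one of the inputs known to raise YAP and TAZ activity.

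Promoters of the coactivator pair are shown because WWTR1 had the lowest log2 fold changes with VT107 among these genes and YAP1 is its paralog. Each sequence is the 250 bases before a RefSeq start site (GRCh38.p14), and capitals mark GGAATG, a core that TEAD proteins recognise.
YAP1, chr11:102110197-102110446, plus strand: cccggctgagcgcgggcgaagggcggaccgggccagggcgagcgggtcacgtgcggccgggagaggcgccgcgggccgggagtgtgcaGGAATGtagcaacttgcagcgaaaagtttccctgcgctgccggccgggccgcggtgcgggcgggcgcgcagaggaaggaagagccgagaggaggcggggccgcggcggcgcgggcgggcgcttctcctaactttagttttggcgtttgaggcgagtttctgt
WWTR1, chr3:149658026-149658275, minus strand: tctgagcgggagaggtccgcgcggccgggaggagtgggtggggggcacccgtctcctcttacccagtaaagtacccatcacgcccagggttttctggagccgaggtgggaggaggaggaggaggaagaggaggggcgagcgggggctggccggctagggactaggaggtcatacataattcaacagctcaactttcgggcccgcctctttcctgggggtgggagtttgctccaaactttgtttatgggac
WWTR1, chr3:149703274-149703523, minus strand: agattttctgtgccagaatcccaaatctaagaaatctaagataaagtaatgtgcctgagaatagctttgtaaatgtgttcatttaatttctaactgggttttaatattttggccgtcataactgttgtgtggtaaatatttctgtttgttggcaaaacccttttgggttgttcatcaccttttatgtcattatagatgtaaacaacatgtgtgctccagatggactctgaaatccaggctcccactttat
GGAATG was searched on both strands. It occurred once before the YAP1 start, 162 bases upstream, and 0 times in the WWTR1 windows. The 2 TEAD2 windows, the 1 TEAD3 window and the 5 VGLL4 windows held it 0 times, and 11.9% of all 35116 windows of this length held it. TGANTCA, the site of AP-1 factors, occurred in 0 of the 11 windows of these genes and in 6.57% of all windows. The 11 windows belong to 5 of the 7 genes; TEAD1 and TEAD4 are named only. A match describes the letters of a window and is not a binding site.

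Labelled libraries held 435343 to 1778876 counts of T>C reads. Levels below are CPM, counts scaled by TMM to library size within each experiment unless another scaling is named. The limit for TEAD4 and the CPM set beside unlabelled libraries are scaled by total counts. A gene was called at a Benjamini-Hochberg adjusted p under 0.05 in edgeR's quasi-likelihood test over all genes that passed a filter on low counts, 10083 in the VT107 and 9024 in the intetumumab experiment. Of the 7 genes, 6 passed the filter in both experiments and TEAD4 in neither. In bulk RNA, fewer cells making a transcript and less of it per cell cannot be told apart.

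New RNA of 3 of the 4 TEAD paralogs was counted in every labelled library. TEAD1 (chromosome 11, 12674421 to 12944737) had 60 to 336 counts per labelled library. TEAD2 (chromosome 19, 49340595 to 49362416) had 15 to 245, and TEAD3 (chromosome 6, 35473597 to 35497079) had 8 to 134. TEAD4 (chromosome 12, 2959397 to 3040676) had 36 counts in the 15 labelled libraries together, with 7 libraries at 0 and at most 9 in any one. With 5 µg/ml intetumumab, TEAD4 had 0 of 1961688 counts. If counts were independent, the one-sided 95% limit for 0 would be about 3 counts, or 1.53 CPM. The exact 95% intervals given below for unlabelled counts are two-sided and reach further. The counts of this gene come in steps of 3, as described below, so the true limit is higher. TEAD4 was thus near the detection limit, with counts in only part of the labelled libraries. Whether a low level was made with 5 µg/ml intetumumab was not detectable at this depth. The coactivators and VGLL4 were counted throughout: WWTR1 (chromosome 3, 149517235 to 149724788) had 116 to 478 counts, YAP1 (chromosome 11, 102110447 to 102233424) 18 to 164 and VGLL4 (chromosome 3, 11556067 to 11721815) 7 to 172. Positions are RefSeq gene spans on GRCh38.p14.

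Unlabelled libraries gave few counts for these genes, from totals of 10702 and 4553. In the VT107 experiment TEAD3 had 2 unlabelled counts (exact 95% Poisson interval 0.242 to 7.22) and VGLL4 had 1. The other 5 genes were at 0 there, and all 7 were at 0 in the intetumumab experiment, where the same interval for 0 reaches 3.69. Counted per library, 6 genes had at least 3 counts and more than the unlabelled library in every labelled library, all but TEAD4. Scaled by total counts, unlabelled TEAD3 stood at 187 CPM, above its labelled 35.9 to 75.3. On that scale TEAD3 and VGLL4 did not exceed the unlabelled library in every labelled one. The small unlabelled total holds only T>C reads and is not sequencing depth, so this scale cannot tell whether a gene was made. As counts, the unlabelled library held 2.91% of the labelled mean for TEAD3 and 0.897% for VGLL4. These percentages and the count rule above are not adjusted for the sequencing depth of the libraries, which was not used here.

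The counts of 3 paralogs came in steps. Every labelled count of TEAD3 was a multiple of 2, every count of TEAD4 a multiple of 3, and 14 of 15 counts of TEAD2 were multiples of 5. Over the table, 14.9% of 9757 genes examined had nonzero labelled counts that all shared a divisor above 1. TEAD3 met that rule. TEAD2 did not, because not all of its counts were on the step, and TEAD4 had too few counts to be examined. The 36 counts of TEAD4 amount to 12 steps, so fewer reads may lie behind these genes than the counts show. Reads came from 3′ ends and were not divided by length, and the number of T positions in the counted stretch differs between genes.

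The order of TEAD1 and TEAD2 in DMSO depended on how these steps were treated. As deposited, TEAD2 made up 50.6% ± 1.62 of the TEAD counts in DMSO (SD, n = 2) and TEAD1 37.5% ± 0.603. With each paralog divided by the divisor that all its labelled counts share, which is 1 for TEAD2, TEAD2 still led, at 53.8% ± 1.14 against 39.9% ± 0.210. A further division was chosen after seeing the data and took TEAD2 by 5, although 1 of its 15 counts is off that step. On that scale alone TEAD1 led in DMSO, at 70.1% ± 1.49 against 18.9% ± 0.702, and in every other labelled library, with 62.6% to 89.5% over all 15. As deposited, TEAD2 also led in replicate 2 of 2.15 µM VT107 (43.0% against 33.7%) and in replicate 2 of 1.5 µg/ml intetumumab (46.0% against 42.9%), and TEAD1 led in the libraries not named. With the isotype, TEAD1 was at 58.6% ± 2.26 as deposited and 82.7% ± 0.331 with TEAD2 divided by 5 (SD, n = 3). The TEAD1 share as deposited spread from 42.9% to 70.2% within the 3 libraries at 1.5 µg/ml intetumumab, the widest of the 6 groups. DMSO (37.1% to 37.9%) and the isotype (56.4% to 60.9%), which belong to different experiments, did not overlap.

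**Figure D1:**
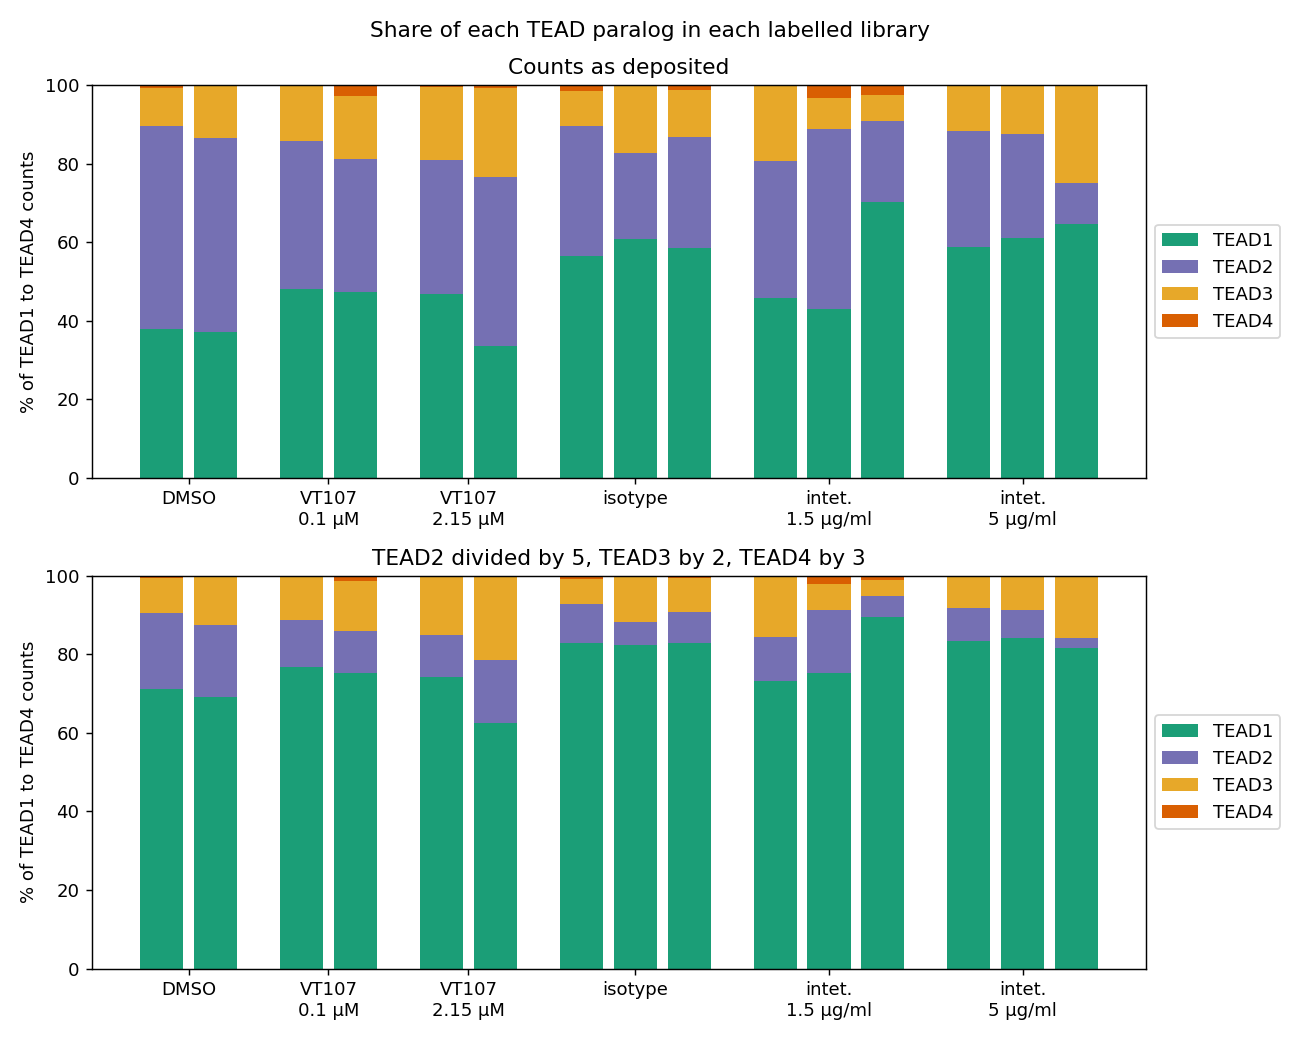
Percent of TEAD1 to TEAD4 counts taken by each paralog, 1 stacked bar per labelled library, as deposited and with TEAD2 divided by 5, TEAD3 by 2 and TEAD4 by 3. TEAD2 is the largest part of both DMSO bars as deposited (51.7% and 49.4%), TEAD1 is the largest part of every bar once TEAD2 is divided by 5, and TEAD4 is barely visible.

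With VT107, none of the 6 genes tested passed the threshold, where edgeR called 0.109% of all genes at the higher dose and 0% at the lower. WWTR1, VGLL4 and TEAD2 had lower CPM than both DMSO libraries in all 4 treated libraries, except that VGLL4 at 0.1 µM overlapped DMSO when scaled by total counts. Lower groups without overlap were found for 20.6% of all genes at 2.15 µM and 19.3% at 0.1 µM, each dose taken alone. The share of all genes lower at both doses was not computed. At 2.15 µM 4 of the 6 were lower and 2 higher, with a median log2 fold change of -0.39 against 0.03 over all genes tested. At 0.1 µM 4 were lower, with YAP1 in place of TEAD1, and the medians were -0.53 and 0.01. Both doses share the same DMSO libraries.

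WWTR1 encodes TAZ, which binds TEAD in the same way as YAP. Its CPM was 452 and 462 for DMSO, 277 and 176 for the lower dose and 183 and 161 for the higher dose. All 4 treated libraries lay below both controls, and the doses overlapped each other. At 2.15 µM the mean was 172 ± 15.4 CPM against 457 ± 7.18 (SD, n = 2 for both), and the log2 fold change was -1.41 (SE 0.26, edgeR unadjusted p = 0.000575, adjusted p = 0.107). For 0.1 µM the mean was 226 ± 71.4 CPM and the log2 fold change -1.01 (SE 0.26, edgeR unadjusted p = 0.00438, adjusted p = 0.242). An unadjusted p under 0.05 with a lower value was reached by 6.3% of all genes at 2.15 µM and 6.11% at 0.1 µM. DESeq2, an alternative, called WWTR1 at 2.15 µM (adjusted p = 6.41e-05) and at 0.1 µM (adjusted p = 0.0179), where it called 2.43% and 1.81% of all genes. Of 17 alternatives, 3 called WWTR1 at 2.15 µM and 1 called it at 0.1 µM. With the replicate number as a block it was not called at 2.15 µM (edgeR adjusted p = 0.152). The lower dose rested on unequal libraries, with a log2 fold change of -1.38 without its replicate 1 and -0.73 without its replicate 2.

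VGLL4, the competitor of YAP and TAZ, was measured at 185 and 129 CPM in DMSO, 122 and 71.6 with 0.1 µM and 74.7 and 50.1 with 2.15 µM. Treated libraries lay below the controls at both doses, but at 0.1 µM this depended on the scaling: by total counts the upper 0.1 µM library was at 123 and the lower DMSO library at 121. Its log2 fold change was -1.32 at 2.15 µM (SE 0.38, edgeR unadjusted p = 0.00788, adjusted p = 0.257) and -0.69 at 0.1 µM (SE 0.38, edgeR adjusted p = 0.516). DESeq2 called VGLL4 at 2.15 µM (adjusted p = 0.0468), where it called 2.43% of all genes. VGLL4 was called there by 1 of 17 alternatives. At 0.1 µM its log2 fold change ranged from -1.13 without replicate 1 of that dose to -0.36 without replicate 2.

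TEAD2 was measured at 209 and 213 CPM in DMSO, 118 and 138 with 0.1 µM and 133 and 135 with 2.15 µM. The 4 treated libraries formed a band below both controls, with overlapping doses. For 2.15 µM the log2 fold change was -0.66 (SE 0.24, edgeR unadjusted p = 0.0250, adjusted p = 0.345), and for 0.1 µM -0.72 (SE 0.25, edgeR unadjusted p = 0.0180, adjusted p = 0.326). With its counts divided by 5 the estimates were -0.66 and -0.72, and the unadjusted edgeR p-values rose to 0.121 and 0.103.

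TEAD1 was measured at 153 and 159 CPM in DMSO, 151 and 193 with 0.1 µM and 182 and 106 with 2.15 µM. Groups overlapped at both doses, with log2 fold changes of -0.12 at 2.15 µM (95% interval -0.84 to 0.61) and 0.14 at 0.1 µM (-0.59 to 0.87). The higher dose's value ran from -0.57 to 0.22 as single libraries were left out, and its interval includes a fall of the size measured for TEAD2.

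TEAD3 was the 1 gene of the 6 with higher values than both controls at 2.15 µM, at 38.6 and 58.0 CPM in DMSO, 44.8 and 65.3 with 0.1 µM and 72.5 and 71.0 with 2.15 µM. Higher groups without overlap were found for 24.1% of all genes there. The TEAD3 log2 fold change was 0.57 (SE 0.37, edgeR adjusted p = 0.626).

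YAP1, the paralog of TAZ, was measured at 74.1 and 71.5 CPM in DMSO, 89.5 and 22.6 with 0.1 µM and 61.1 and 98.7 with 2.15 µM. Treated libraries lay on both sides of the controls at each dose, and replicate 2 at 0.1 µM, with 18 counts, was the lowest. At 2.15 µM its log2 fold change was 0.13 with a 95% interval of -1.14 to 1.40. At 0.1 µM it was -0.37, moving to 0.29 without replicate 2 and -1.69 without replicate 1, so the direction for YAP1 rested on single libraries.

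**Figure D2:**
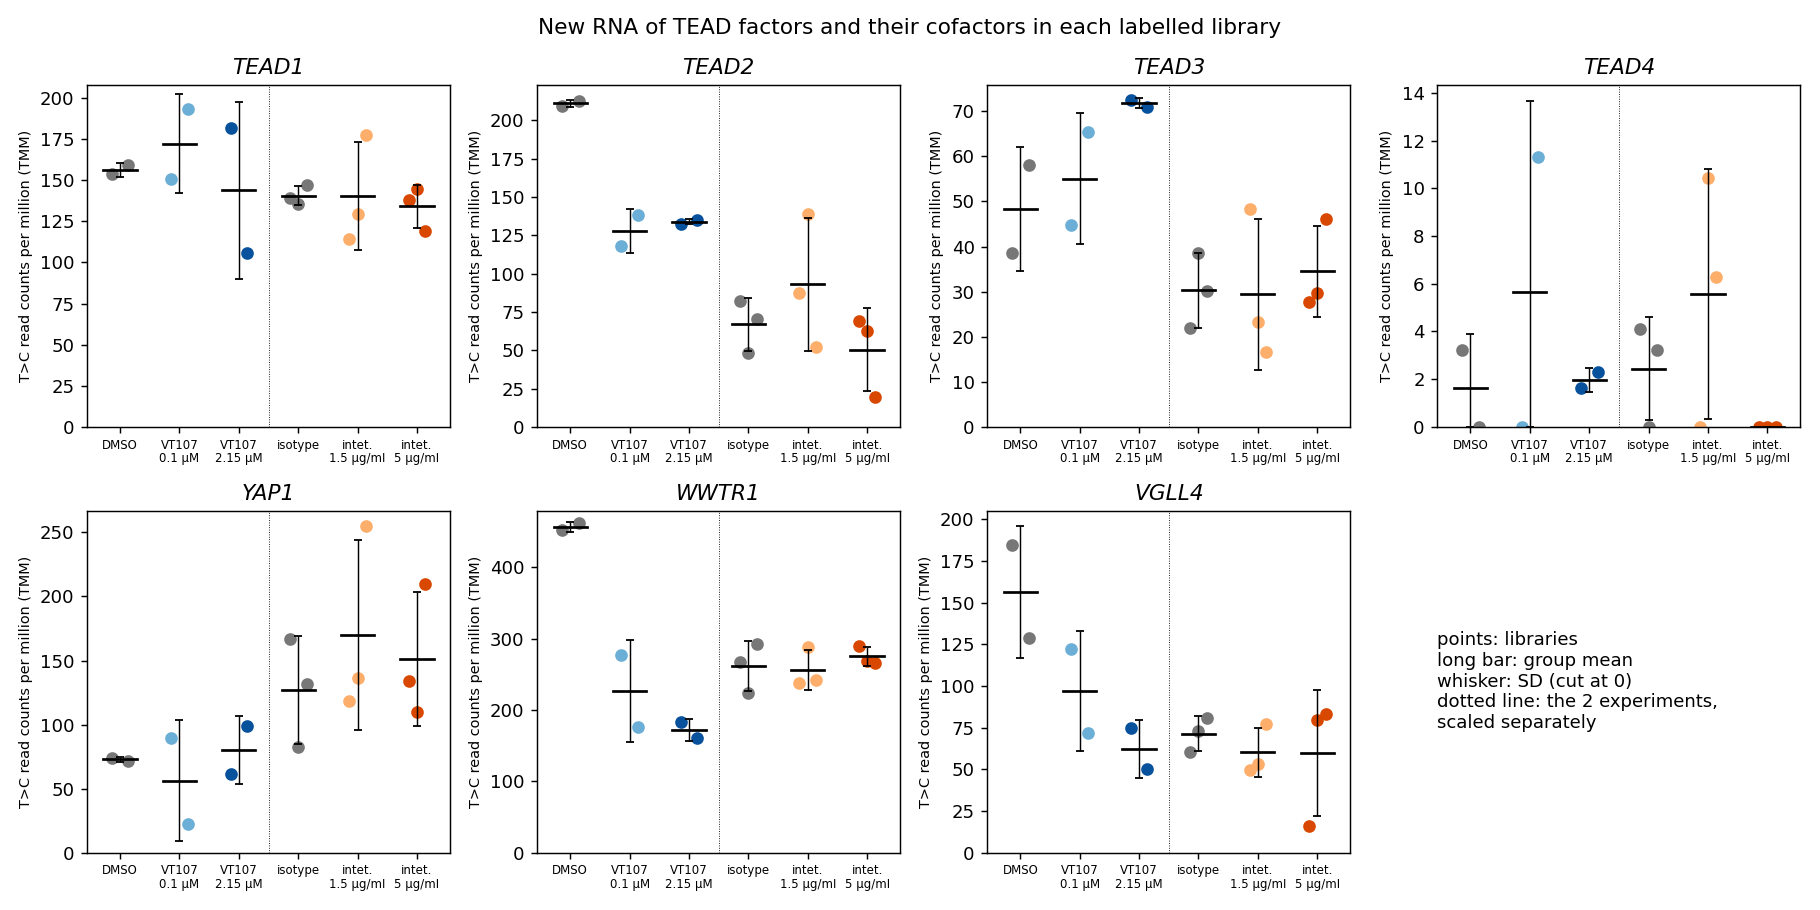
New RNA of each gene in CPM (linear axes from 0) by group, 1 point per labelled library, with group means (bars) and SD (whiskers). On this TMM scale the VT107 libraries of WWTR1, VGLL4 and TEAD2 all lie below the DMSO libraries, and the intetumumab groups overlap the isotype for the 6 genes that passed the filter.

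YAP1 made up 13.7% ± 0.478 of the counts of YAP1 plus WWTR1 in DMSO (14.1% and 13.4%), 17.9% ± 9.22 with 0.1 µM (24.4% and 11.4%) and 31.5% ± 9.14 with 2.15 µM (25.1% and 38.0%; SD, n = 2 throughout). Both libraries at 2.15 µM lay above both controls, and those at 0.1 µM lay on either side. In the intetumumab experiment the mean share was 32.1% with the isotype (27.0% to 38.4%), 38.9% with 1.5 µg/ml and 34.8% with 5 µg/ml. The share at 2.15 µM VT107 was thus near that of the isotype, and DMSO had the lowest mean share of the 6 groups. A low share in the DMSO libraries cannot be told apart from a rise with VT107. These are shares of counts from 2 genes with different 3′ ends, not of molecules, and no test of them was run.

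Between the doses of VT107 none of the 6 genes passed in edgeR, which called 0% of all genes, or in DESeq2, which called 0.0694%. WWTR1 had a log2 fold change of -0.40 from 0.1 to 2.15 µM (95% interval -0.99 to 0.20) and VGLL4 one of -0.63 (-1.51 to 0.25). TEAD2 had 0.06 (-0.50 to 0.62). TEAD3 was again the gene without overlap, higher at 2.15 µM, as were 20.1% of all genes.

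With intetumumab, none of the 6 genes passed at 5 µg/ml, where edgeR called 0.0887% of all genes, or at 1.5 µg/ml, where it called 0%. All 6 overlapped the isotype at both doses, while 15.9% of all genes at 5 µg/ml and 12.3% at 1.5 µg/ml did not. At 5 µg/ml 3 of the 6 were higher and 3 lower, with a median log2 fold change of -0.00 against 0.00 over all genes tested, and the smallest edgeR adjusted p among them was 0.802. DESeq2 called 0 of the 6 at either dose, and 1.11% of all genes at 5 µg/ml and 0.388% at 1.5 µg/ml. The doses share the isotype libraries.

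WWTR1 was measured at 268, 224 and 293 CPM with the isotype, 238, 288 and 242 with 1.5 µg/ml and 290.3, 269 and 266 with 5 µg/ml. These groups overlapped, and the 5 µg/ml libraries lay within the upper part of the isotype range. Its log2 fold change was 0.07 for 5 µg/ml (95% interval -0.29 to 0.43) and -0.03 for 1.5 µg/ml (-0.39 to 0.33). As folds over the isotype, these intervals run from 0.817 to 1.35 and from 0.764 to 1.26.

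TEAD1 also had close replicates with the isotype, at 139, 135 and 147 CPM with the isotype, 114, 129.7 and 177 with 1.5 µg/ml and 138, 145 and 119 with 5 µg/ml. For 5 µg/ml the log2 fold change was -0.07 (95% interval -0.53 to 0.39).

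TEAD2 varied more between replicates, at 82.0, 48.3 and 70.2 CPM with the isotype, 87.4, 139 and 52.2 with 1.5 µg/ml and 69.1, 62.2 and 19.2 with 5 µg/ml. Its lowest library had 15 counts, which is 3 steps of 5. From 1.5 to 5 µg/ml its log2 fold change was -0.95 (SE 0.45, edgeR unadjusted p = 0.0560, adjusted p = 0.866), the largest of the 6 between the doses. None passed there, edgeR called 0.0111% of all genes, and all 6 overlapped, while 10.8% of all genes did not.

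YAP1 was measured at 167, 82.8 and 132 CPM with the isotype, 118, 137 and 255 with 1.5 µg/ml and 134, 109.6 and 210.0 with 5 µg/ml. Replicates of a group spread widely, and the log2 fold changes were 0.40 (95% interval -0.36 to 1.15) for the lower and 0.26 (-0.50 to 1.01) for the higher dose.

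VGLL4 was measured at 60.1, 73.2 and 81.0 CPM with the isotype, 49.8, 53.3 and 77.2 with 1.5 µg/ml and 16.1, 79.8 and 83.2 with 5 µg/ml. Replicate 1 of the higher dose, the shallowest labelled library, had 7 counts and stood below the rest. The log2 fold change of -0.21 at 5 µg/ml (SE 0.42) turned to 0.19 without that library.

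TEAD3 was measured at 21.9, 38.7 and 30.2 CPM with the isotype, 48.4, 23.2 and 16.7 with 1.5 µg/ml and 27.6, 29.8 and 46.1 with 5 µg/ml, with log2 fold changes of -0.01 and 0.21. All groups overlapped.

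**Figure D3:**
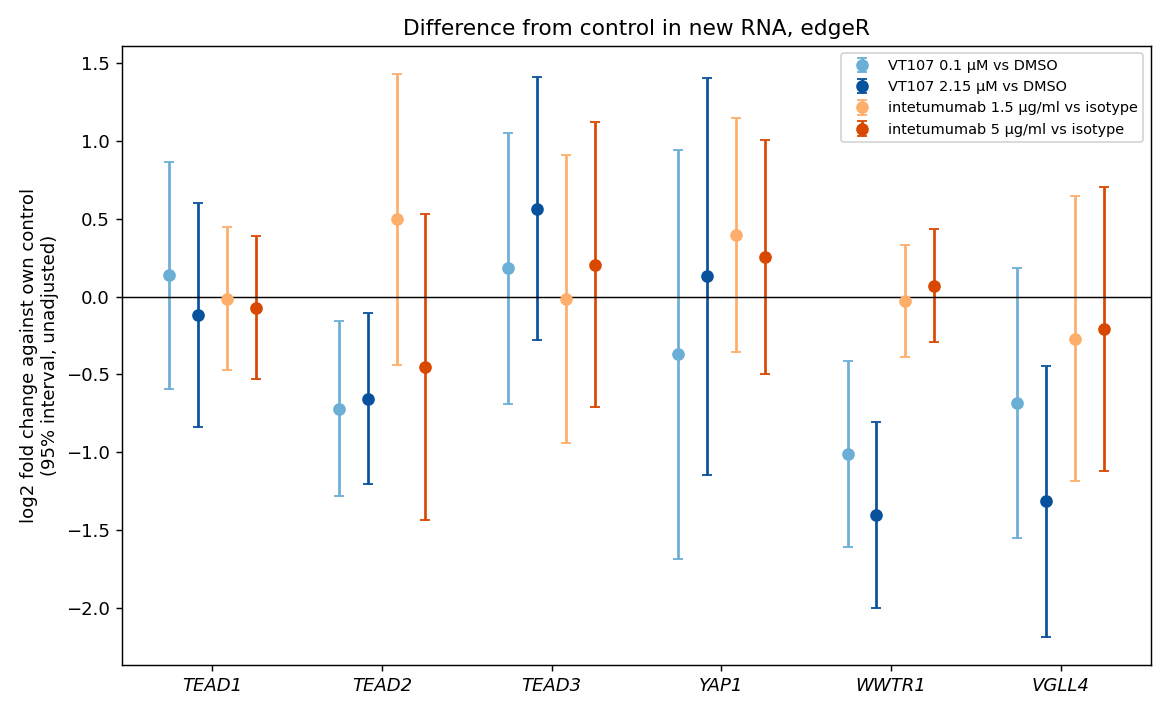
Log2 fold change of each tested gene against its own control in edgeR, with unadjusted 95% intervals, for both doses of VT107 and of intetumumab. The intervals of WWTR1 and TEAD2 at both VT107 doses and of VGLL4 at 2.15 µM lie below 0, and every intetumumab interval includes 0.

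A single fit over the 15 labelled libraries tested whether the agents differ, as the VT107 effect at the higher dose minus the intetumumab effect at 5 µg/ml. None of the 6 genes passed, and edgeR called 0.0782% of 10227 genes. For WWTR1 the effects differed by -1.47 on the log2 scale (SE 0.29, edgeR unadjusted p = 0.000118, adjusted p = 0.0710), and 4.18% of all genes reached an unadjusted p under 0.05 in that direction. Over 24 alternatives this difference lay between -1.58 and -1.36, and 4 of them called it. These were DESeq2 (adjusted p = 0.000156), which called 1.02% of all genes, the fit without the low-count filter, which called 0.296%, and the fits without replicate 1 or 2 of 0.1 µM VT107. The last kind leaves a single library at that dose. With the replicate number as a block it was not called (edgeR adjusted p = 0.132). For VGLL4 the difference was -1.11 (SE 0.63, edgeR adjusted p = 0.640), and for the other tested genes it lay between -0.19 (TEAD2) and 0.36 (TEAD3).

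Control levels differed between the experiments. With all 15 libraries scaled together, WWTR1 stood at 464 ± 0.717 CPM in DMSO (SD, n = 2), 257 ± 35.9 with the isotype (n = 3) and 175 ± 15.7 with 2.15 µM VT107. VGLL4 stood at 159 ± 43.0 in DMSO, 70.3 ± 10.8 with the isotype and 63.5 ± 17.7 with 2.15 µM VT107. TEAD2 stood at 214 ± 1.29, 65.7 ± 16.8 and 136 ± 1.67 in the same groups. A higher DMSO mean was not particular to these 3 genes: TEAD3 stood at 49.0 ± 13.1, 29.7 ± 8.21 and 73.0 ± 1.15 in the same groups. YAP1 had a lower mean in DMSO (74.0 ± 3.10 against 125 ± 41.4), and TEAD1 had a slightly higher one (159 ± 1.57 and 138 ± 6.74). The agent and the experiment cannot be told apart between the controls, nor can a high level in the 2 DMSO libraries be told apart from a fall with VT107.

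Over the 15 labelled libraries, with each experiment centred on its mean, the gene whose log2 CPM followed WWTR1 most closely among 10226 others was ENSG00000100813 (Pearson 0.924, Spearman 0.754, and Pearson 0.814 without the 2 libraries farthest from the median). Pearson's r was 0.982 within the VT107 experiment and 0.0862 within the intetumumab experiment. For TEAD1 the closest gene was ENSG00000140044 (Pearson 0.819, Spearman 0.732, and 0.887 and 0.873 within the experiments). Each was picked as the highest of all genes, so these are descriptions without a test, and the files do not pair these IDs with names.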

How the data were processed

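The deposited values are raw counts per Ensembl gene ID of T>C reads from new RNA. The authors produced these counts with SLAM DUNK, as the series design text states, and GRCh38 is the build in the submitters' processing notes. Per the labels' protocols, a QuantSeq kit that reads 3′ ends was used. For the pipeline's version, the annotation, the conversions required per read and the use of strand, nothing was given in the sources used here. Reads of overlapping genes therefore cannot be told apart: RefSeq spans of CD37 and DKKL1 overlap TEAD2, ATG7 overlaps VGLL4, WWTR1-AS1 and WWTR1-IT1 overlap WWTR1, TEAD1-AS1 overlaps TEAD1 and YAP1-DT overlaps YAP1.

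Groups came from the sample titles. Each experiment was fitted with all its labelled libraries in edgeR 4.0.16 (R 4.3.3): filterByExpr with a minimum count of 10, TMM, glmQLFit and two-sided glmQLFTest. SE values are the log2 fold change over the root of F, and 95% intervals are for single genes. The fit was tested on simulated counts. Alternatives included DESeq2 1.42.0, other scalings and filters, division of repeated counts, and leaving out each library. Replicate counts differed by more than counting noise (chi-square per degree of freedom 3.66 to 8.52), so each library counts once. Counting intervals cover counting error only.

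The 7 genes are all described, and their names come from the rule that chose them. The members and lists were chosen with earlier results of these data known. Lists of Hippo kinases, further cofactors, TEAD targets and cell type markers were not analysed here, because the gene table used held 0 genes with an Ensembl ID. The genes most like WWTR1 and TEAD1 were those with the highest correlation of log2 CPM (prior count 2), taken for the 2 members with the highest mean CPM.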

Additional observations from a re-analysis of the deposited data

How the results depend on the processing

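Counts of called genes among the 6 tested were 0 in all 7 comparisons with edgeR. Under the alternatives, DESeq2 called WWTR1 at VT107 0.1 µM, WWTR1 and VGLL4 at 2.15 µM, and WWTR1 for the difference between agents. Each was lower with VT107. In the whole table DESeq2 called 183, 245 and 104 genes (1.81%, 2.43% and 1.02%). There edgeR called 0, 11 and 8 (0%, 0.109% and 0.0782%). WWTR1 was also the 1 gene called at 2.15 µM in a fit of all 15 labelled libraries and without the filter on low counts, where 1.52% and 1.47% of all genes were called, and the 1 gene called for the difference between agents without that filter (0.296% of all genes). Leaving out 1 library gave 0 to 1 calls for that difference, with WWTR1 called without replicate 1 or 2 of VT107 0.1 µM, and 0 in the other 6 comparisons. With the replicate number as a block the count stayed at 0 in every comparison, with WWTR1 at -1.42 (edgeR adjusted p = 0.152) for VT107 2.15 µM. Deviations of same-numbered libraries correlated between -0.0152 and 0.00635 in the VT107 and between -0.0238 and 0.0653 in the intetumumab experiment. These values show no large effect shared by same-numbered libraries. They cannot tell whether such libraries were handled together, which the labels do not say. Of 807 log2 fold changes recomputed, 779 stayed within 1 SE of the value given, 9 became calls in the same direction and 19 moved further, and 46 changed sign, all between values that were not called. Total count scaling moved the median of all genes at 2.15 µM from 0.03 to 0.18 and left WWTR1 at -1.25. Demanding 10 counts in every labelled library left 4 in place of 6 genes that met the count rule. Comparing CPM also left 4, but that scale divides by T>C totals and cannot tell whether a gene was made. Division of TEAD2 by 5 and prior counts of 2 were chosen after seeing the data. Low counts limit TEAD4, which did not pass the filter of the main fits and was not tested there. Without that filter all 7 genes were tested, and TEAD4 was not called in any comparison.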
